A study of Mus musculus with 69 samples.

Results

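The 30 libraries described here were sorted from WT + p53KO gastruloids, aggregates of mouse embryonic stem (mES) cells in which p53-mutant and wild-type cells grew side by side. They were 3 pairs at each of 48, 72, 96, 120 and 144 h after aggregation. In each pair the p53KO–emiRFP and the WT–mCherry cells came from WT + p53KO gastruloids of the same time and shared a replicate number. That a number marks the same aggregates was inferred, and at 72 h it was not shown for every pair. The 30 libraries were selected by their group labels alone, from the 69 libraries of the series. The WT–mCherry clone carried H2B–mCherry under an EF1α promoter, and 150 of its cells were aggregated with 25 p53KO–emiRFP cells. The p53KO–emiRFP line was 1 clone, derived from the WT–emiRFP clone (H2B–emiRFP670 under a CAG promoter) by a frameshift in exon 4 of Trp53 and grown out under the Mdm2 inhibitor Nutlin-3a. All lines were E14Tg2A mES cells, and gastruloids grown past 48 h received the Wnt agonist CHIR99021 between 48 and 72 h. Because the mutant and wild-type cells of a pair differ in clone, reporter and promoter as well as in Trp53, each difference was set beside the same comparison in WT + WT gastruloids (150 WT–mCherry and 150 WT–emiRFP cells, 30 libraries at the same times). A WT–emiRFP against WT–mCherry difference cannot contain an effect of the Trp53 mutation. The WT + p53KO and WT + WT gastruloids also differ in the neighbours of the WT–mCherry cells and in the number of emiRFP cells seeded. These differences, and any change private to the p53KO clone, cannot be told apart from an effect of Trp53 here. The replicates came from independent experiments, the cells were sorted by FACS with no purity check given afterwards, and n = 3 in every group.

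p53 is a transcription factor that is held at a low level by the ubiquitin ligase Mdm2 and rises under DNA damage and other stress. It then switches on genes that halt the cell cycle, such as Cdkn1a, and genes that open the mitochondrial route to apoptosis, such as Bax and Bbc3. In mosaic tissues, cells with less p53 activity are known to displace neighbours with more of it, and this cell competition is the question behind the mixed aggregates. Gastruloids themselves pass from a pluripotent state through a primitive-streak-like phase after the Wnt pulse to an elongated form with caudal progenitors, presomitic mesoderm and somite-like tissue.

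The promoters of 4 target genes are shown as examples, picked from the listed targets that were lower in p53KO–emiRFP cells at all 5 times and whose window held a match to the p53 decamer. Each window runs from 250 bases before to 50 bases after the RefSeq start (GRCm38.p6), and capitals mark the matches to this consensus, searched on both strands.

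Cdkn1a promoter, chr17:29090729-29091028, plus strand: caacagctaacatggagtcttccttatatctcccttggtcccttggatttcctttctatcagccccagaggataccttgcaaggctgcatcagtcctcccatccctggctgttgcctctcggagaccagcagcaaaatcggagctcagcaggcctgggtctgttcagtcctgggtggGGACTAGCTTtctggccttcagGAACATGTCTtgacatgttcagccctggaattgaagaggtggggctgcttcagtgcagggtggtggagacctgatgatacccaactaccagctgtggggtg

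Mdm2 promoter, chr10:117710709-117711008, minus strand: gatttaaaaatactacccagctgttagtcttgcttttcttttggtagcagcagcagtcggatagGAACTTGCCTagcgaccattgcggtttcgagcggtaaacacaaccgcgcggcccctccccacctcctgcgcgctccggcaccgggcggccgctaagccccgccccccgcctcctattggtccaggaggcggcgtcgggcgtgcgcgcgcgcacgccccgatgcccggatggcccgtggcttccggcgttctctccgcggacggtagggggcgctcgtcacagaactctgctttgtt

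Ccng1 promoter, chr11:40755237-40755536, minus strand: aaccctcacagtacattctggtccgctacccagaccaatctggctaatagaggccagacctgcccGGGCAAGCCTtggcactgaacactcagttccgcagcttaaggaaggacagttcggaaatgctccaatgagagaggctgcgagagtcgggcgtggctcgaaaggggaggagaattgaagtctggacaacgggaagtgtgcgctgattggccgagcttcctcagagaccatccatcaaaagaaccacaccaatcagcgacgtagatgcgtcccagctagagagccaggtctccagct

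Bax promoter, chr7:45466849-45467148, minus strand: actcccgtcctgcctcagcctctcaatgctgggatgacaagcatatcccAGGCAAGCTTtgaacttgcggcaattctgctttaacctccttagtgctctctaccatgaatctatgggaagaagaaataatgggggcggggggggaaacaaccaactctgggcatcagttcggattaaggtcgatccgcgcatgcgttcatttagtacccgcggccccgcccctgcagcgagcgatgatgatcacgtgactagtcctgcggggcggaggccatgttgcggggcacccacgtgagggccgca

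The Cdkn1a window held 2 decamers and the other windows shown 1 each, while most target windows held none. Of all 32851 promoter windows of this length, 8.36% held a decamer, against 22% (9 of 41) of the listed p53 target genes that had a window. These matches are descriptions of letters, not of binding.

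The Trp53 message itself separated the populations. At 48 h it stood at 1773, 1904 and 1761 normalized counts (counts divided by the library's median-of-ratios size factor) in p53KO–emiRFP and at 17125, 17036 and 16468 in WT–mCherry of the same pairs. At 144 h the values were 1797, 1506 and 1559.5 against 13902, 14784 and 15145. Over the 15 pairs the mutant level lay between 9.9% and 13.8% of that of its wild-type partner, and no library went against its label. The log2 fold change of p53KO–emiRFP over WT–mCherry, called the gap below, was -3.22 ± 0.05 (SE) at 48 h (edgeR adjusted p = 1.2e-15) and -3.17 ± 0.07 at 144 h (edgeR adjusted p = 4.9e-12). The same log2 fold change of WT–emiRFP over WT–mCherry in WT + WT gastruloids, the clone gap, was -0.07 ± 0.05 at 48 h (edgeR adjusted p = 0.39).

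The reporters gave a second check. H2bc14, an H2B gene whose counts were high in every emiRFP library, as an H2B transgene would give, stood at 7938, 7889 and 5473 normalized counts in p53KO–emiRFP at 48 h and at 23.8, 28.8 and 22.5 in WT–mCherry. In WT–mCherry its level was 0.299 to 0.41% of that of its partner at 48 h, 0.486 to 2.08% at 72 h, 1.48 to 3.57% at 96 h, 3.01 to 7.46% at 120 h and 2.39 to 16.9% at 144 h. In WT–mCherry of WT + WT gastruloids the highest value was 2.12%. The late WT–mCherry libraries of the WT + p53KO gastruloids thus held more of this RNA, with the highest share in replicate 1 at 144 h, and the counts of genes beyond the clone effect are also given after this share was subtracted. The H2B gene H2bc7 gave 11.9% in that library. H2bc21 reached 29.1% in replicate 3 at 120 h and 10.9% in WT + WT gastruloids, so the size of the share depends on the gene. Missorted cells and RNA taken up from neighbours cannot be told apart here. Library totals ran from 46388381 to 66543495 counts, with size factors of 0.817 to 1.3.

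**Figure D1:**
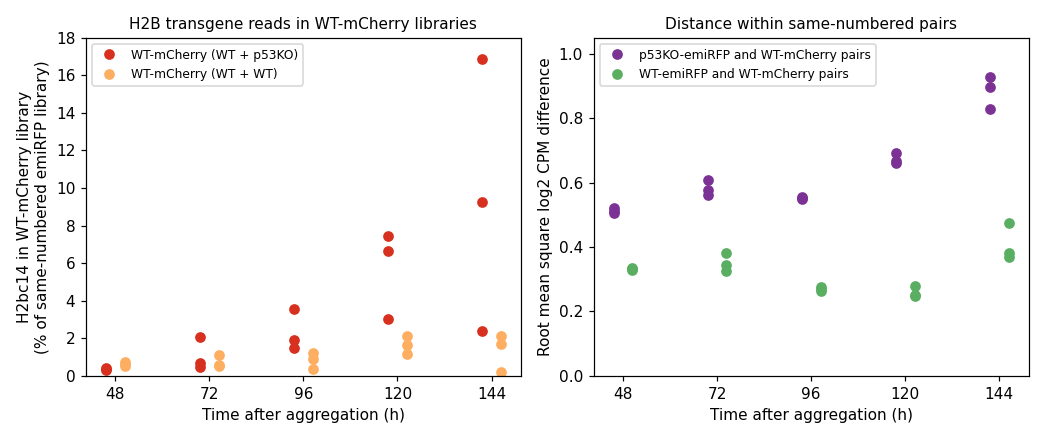
H2bc14 in each WT–mCherry library as a percent of its same-numbered emiRFP partner (left), and the root mean square log2 difference between partners over 14106 genes (right), by time in hours, with 1 point per library or pair. The WT–mCherry libraries of WT + p53KO gastruloids reach 16.9% at 144 h, and every mutant–wild-type pair lies above every WT + WT pair of its time.

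The mutant and wild-type cells of a same-numbered pair were further apart than the pairs of WT + WT gastruloids at every time. The root mean square difference in log2 CPM (counts scaled to library size) within a pair was taken over 14106 genes whose mean reached 50 counts. It was 0.504, 0.512 and 0.522 at 48 h, against 0.335, 0.333 and 0.33 in the WT + WT pairs. At 96 h it was 0.551, 0.557 and 0.548 against 0.277, 0.264 and 0.268. By 120 h it was 0.692, 0.66 and 0.666 against 0.252, 0.248 and 0.28, and by 144 h 0.897, 0.929 and 0.829 against 0.38, 0.368 and 0.473. The groups did not overlap at any of the 5 times. The exact two-sided permutation p was 0.1 at each, the smallest that 3 against 3 can give.

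By gene, edgeR's quasi-likelihood test called the gap (adjusted p below 0.05) for 4470 of 17662 genes at 48 h (25.3%) and for 5554 of 17714 at 72 h (31.4%). The count was 4330 of 18356 at 96 h (23.6%), then 7442 of 18901 at 120 h (39.4%), and reached 12473 of 19391 at 144 h (64.3%). In the order of time 12.8%, 15%, 9.02%, 20.1% and 34.8% of the tested genes were called higher in p53KO–emiRFP, and 12.5%, 16.3%, 14.6%, 19.3% and 29.5% lower. The order of these shares depended on the processing. With TMM scaling (trimmed mean of M values) more genes were called lower than higher at every time, by 2456 to 2013 at 48 h, by 3931 to 3241 at 120 h and by 6280 to 5956 at 144 h. With no filter on low counts the order turned at 48 h (2325 lower and 2307 higher) and 120 h (3995 and 3826). DESeq2, which was run on unfiltered genes, also called more genes lower at 144 h (6262 to 5986). Wide gaps were mostly lower: with an absolute log2 fold change of at least 1, in the order of time, 190, 177, 106, 347 and 1739 called genes were higher and 566, 868, 903, 1726 and 2930 lower. With the replicate number as a block the counts were 7708 at 48 h (43.6%) and 7245 at 96 h (39.5%), and 41.5%, 53.6% and 69.6% were called at the other times. The blocked shares called higher were 23.5%, 21.4%, 17.9%, 30% and 37.8%, and those called lower 20.1%, 20.1%, 21.6%, 23.6% and 31.8%. Without replicate 1 the counts up to 120 h were 2431, 2964, 1928 and 3845, and the count also fell by over 1.5 times without replicate 2 at 48 h (2620), 72 h (3157) and 96 h (2506). The median gap over all tested genes was 0.02, 0.02, 0.00, 0.05 and 0.05 in the order of time, so calls are read against a centre close to 0.

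The clone gap was called for fewer genes than the gap at every time. It was called for 1572 genes at 48 h (8.9%) and 1354 at 72 h (7.64%). It was called for 395 (2.15%) at 96 h, for 231 (1.22%) at 120 h and for 4616 (23.8%) at 144 h. The shares higher in WT–emiRFP were 4.19%, 4.35%, 1.26%, 0.704% and 10.8% in the order of time, and the shares lower 4.71%, 3.3%, 0.893%, 0.518% and 13%. With TMM the order at 48 h turned to 824 higher and 788 lower. With an absolute log2 fold change of at least 1, 32, 27, 25, 24 and 148 were higher and 180, 101, 29, 14 and 535 lower. With the replicate block the clone counts rose to 5098, 2865, 2927 and 2040 up to 120 h. Without replicate 1 the clone counts were 334, 167, 30, 18 and 2366 in the order of time. Without replicate 2 they were 363, 241, 67, 307 and 2922 in the order of time, with the fewest at 96 h. Without replicate 3 they were 980, 34 and 2178 at 48, 120 and 144 h. At 48 h, 729 genes were called in the gap and the clone gap in the same direction, 16.3% of the gap calls and 46.4% of the clone calls. At 144 h 3941 genes were called in both with opposite signs and 166 with the same sign. A gene is therefore counted below as different beyond the clone gap only where the gap and the difference of the gap from the clone gap were both called in the same direction. The difference was called for 10.9%, 20.5%, 13%, 33.1% and 62.1% of genes in the order of time. There were 1529 genes beyond the clone gap at 48 h (8.66%) and 2947 at 72 h (16.6%). Later there were 2047 (11.2%) at 96 h, 5637 (29.8%) at 120 h and 11138 (57.4%) at 144 h. The shares higher were 3.43%, 6.42%, 2.69%, 14.2% and 30.4%, and the shares lower 5.23%, 10.2%, 8.47%, 15.6% and 27.1%. With TMM the order at 144 h turned to 5276 higher and 5698 lower, and with the block more were higher than lower at 48 h (2179 and 1862) and 120 h (4469 and 3764). After the emiRFP share was subtracted these counts were 1543, 2996, 2144, 6011 and 11506. Under the block they were 4041 (22.9%) at 48 h and 4241 (23.1%) at 96 h, with 24.9%, 43.6% and 62.8% at the other times, and the lowest leave-one-out counts, all without replicate 1 except at 144 h, were 604, 1215, 692, 2465 and 9056. Without replicate 2 they were 689 at 48 h, 1405 at 72 h and 985 at 96 h, and without replicate 3 they were 999 at 48 h.

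**Figure D2:**
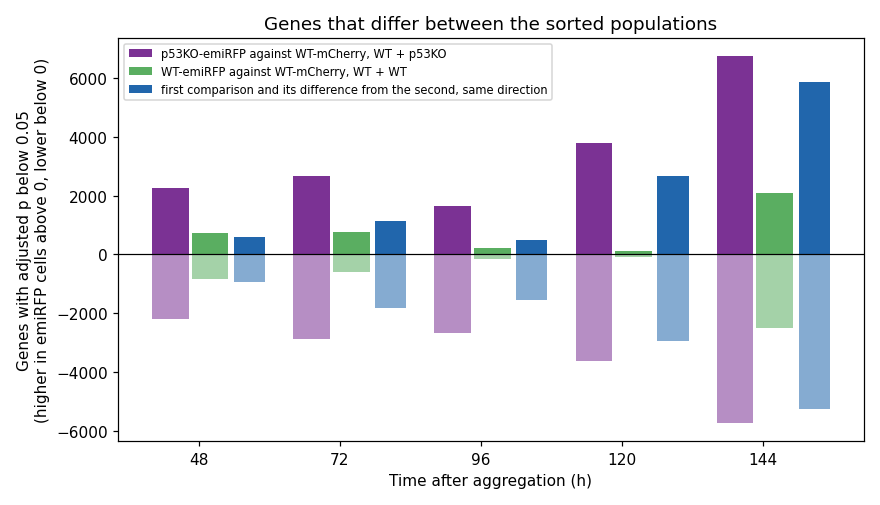
Number of genes with an edgeR adjusted p below 0.05 by time in hours, higher in emiRFP cells above 0 and lower below 0, for the gap (purple), the clone gap (green) and genes counted beyond the clone gap (blue). The gap reaches 12473 genes at 144 h, and the clone gap has its fewest, 231, at 120 h.

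The listed p53 target genes (50, all tested at each time) were lower in p53KO–emiRFP at every time. In the order of time 40, 39, 39, 40 and 40 were lower and 1, 3, 2, 3 and 3 higher, against the 12.5%, 16.3%, 14.6%, 19.3% and 29.5% of all tested genes that were called lower. The median gap of the list was -1.34, -1.71, -1.33, -1.07 and -1.26, beside a median clone gap between 0.03 and 0.17. All tested genes had medians of 0.00 to 0.05. Of the lower ones 39 at each time up to 120 h, and 38 at 144 h, differed beyond the clone gap.

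Members of the list did not share one time course. Eda2r, a member of the TNF receptor family, stood at 38.2, 50.2 and 49.3 normalized counts in p53KO–emiRFP and 3354, 3109.5 and 3961 in WT–mCherry at 48 h, and at 63.7, 37.1 and 33.9 against 2454, 2666 and 2679 at 144 h. It stayed far apart, with gaps of -6.24 ± 0.15 (edgeR adjusted p = 4.3e-14) and -5.83 ± 0.16 (edgeR adjusted p = 3.8e-11). Ccng1, which encodes cyclin G1, had gaps of -4.87 ± 0.08 at 48 h (edgeR adjusted p = 1.2e-15) and -3.42 ± 0.06 at 144 h (edgeR adjusted p = 5.5e-13). Mdm2 was at 2681, 2611 and 2491 against 10704, 9904 and 9964 at 72 h, where its gap was widest (-1.97 ± 0.06, edgeR adjusted p = 1.2e-12).

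Plk2, a polo-like kinase, had a gap that narrowed late. In p53KO–emiRFP it stood at 82, 83.2 and 60.4 at 48 h, and rose from 115, 159 and 103 at 96 h through 567, 513 and 694 to 1864, 1343 and 1605 by 144 h. WT–mCherry held 3637, 3327 and 4135 at 48 h and 2741, 3079.7 and 2424 by 144 h. The mutant libraries rose but stayed below their partners at each time. The gap went from -5.63 ± 0.11 (edgeR adjusted p = 4e-15) to -0.78 ± 0.12 (edgeR adjusted p = 5.1e-05), and its change was 2.36 ± 0.18 from 96 to 120 h (edgeR adjusted p = 6e-14) and 1.54 ± 0.16 from 120 to 144 h (edgeR adjusted p = 7.7e-10). Phlda3, an inhibitor of Akt, moved earlier. Its gap was -5.02 ± 0.17 at 72 h (edgeR adjusted p = 8.8e-12) and -2.71 ± 0.11 at 96 h (edgeR adjusted p = 2.5e-10), a change of 2.32 ± 0.22 (edgeR adjusted p = 5.4e-10).

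Cdkn1a, the CDK inhibitor p21, rose and fell in both populations. In p53KO–emiRFP it was 109, 89.4 and 69.5 at 48 h, rose to 6485, 5817 and 6102 at 72 h, and then went through 2259, 2463 and 1825 and 559, 612 and 453 to 224, 206 and 205 by 144 h. WT–mCherry held 2108, 2069.8 and 2398 at 48 h and 15025, 14615 and 14564 at 72 h. It then went through 7799, 7811 and 6674 at 96 h and 4560.4, 4864 and 3996 at 120 h to 3826, 3911 and 3015 by 144 h. Of the 5 times both populations were highest at 72 h, the end of the Wnt pulse, and the groups did not overlap at any time. The gap shrank from -4.62 ± 0.10 (edgeR adjusted p = 1.7e-14) to -1.26 ± 0.06 (edgeR adjusted p = 2.5e-10), a change of 3.36 ± 0.18 (edgeR adjusted p = 1.2e-19). It widened again to -4.08 ± 0.12 by 144 h (edgeR adjusted p = 8.9e-11). Changes of the gap between 48 and 72 h were called for 571 of 20638 genes (2.77%), 126 towards the mutant cells (0.611%) and 445 towards the wild-type cells (2.16%), and for 1117 genes with the replicate block. Without replicates 1, 2 and 3 they were 84, 161 and 357.

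Several genes of the apoptotic machinery were lower in the mutant cells. Bbc3 (PUMA, a BH3-only activator) stood at 339, 365 and 309 against 1633, 1919 and 1660.0 at 72 h, with a gap of -2.36 ± 0.13 (edgeR adjusted p = 2e-09). By 144 h it was at 942, 889.8 and 878 against 2915, 2285 and 2012, a gap of -1.41 ± 0.12 (edgeR adjusted p = 2e-07). Bax, the pore-forming effector, kept gaps of -1.09 ± 0.09 at 48 h (edgeR adjusted p = 2.8e-07) and -1.16 ± 0.08 at 144 h (edgeR adjusted p = 5.7e-08). Apaf1, the scaffold of the apoptosome, went from -1.86 ± 0.07 at 72 h (edgeR adjusted p = 3.3e-11) to -0.58 ± 0.06 at 144 h (edgeR adjusted p = 7.7e-07). Fas, the death receptor, was low in mutant cells, at 8.83, 8.89 and 7.84 against 93, 73.8 and 61 at 72 h, with a gap of -3.13 ± 0.29 (edgeR adjusted p = 1.2e-06).

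Pmaip1 (NOXA), a BH3-only gene, was higher. It stood at 4709, 4277 and 4156 in p53KO–emiRFP and 2556, 2579 and 2065 in WT–mCherry at 96 h, and all 3 mutant libraries were above all 3 wild-type ones. Its gap was 0.43 ± 0.07 at 72 h (edgeR adjusted p = 0.00018) and 0.87 ± 0.08 at 96 h (edgeR adjusted p = 3.6e-06). Its clone gap had the opposite sign, -0.69 ± 0.07 at 72 h (edgeR adjusted p = 2.9e-05) and -0.47 ± 0.09 at 96 h (edgeR adjusted p = 0.01), the latter lost without 1 replicate number (highest edgeR adjusted p = 0.23). Bok, another effector, had gaps of 0.56 ± 0.08 at 96 h (edgeR adjusted p = 0.00026) and 1.04 ± 0.13 at 144 h (edgeR adjusted p = 7.9e-06). Of the 13 listed BH3-only and effector genes 4 were higher and 3 lower at 120 h, and 5 and 5 at 144 h, with a median of 0.03, where 34.8% of all tested genes were called higher and 29.5% lower. Of the 5 tested prosurvival genes 1 was higher and 3 lower at 144 h (median -0.37). Bcl2, the higher one, had a gap of 1.82 ± 0.15 at 144 h (edgeR adjusted p = 2e-07) beside a clone gap of -1.34 ± 0.15 (edgeR adjusted p = 9.3e-05), and Mcl1 one of -0.94 ± 0.10 (edgeR adjusted p = 1.2e-06). Fadd, the adaptor of Fas, had a gap of 0.92 ± 0.12 (edgeR adjusted p = 1.9e-05). Fasl was too low to test at 48, 72, 120 and 144 h and did not pass at 96 h (0.19 ± 0.27, edgeR adjusted p = 0.68). Of the apoptosome genes and caspases 4 of 11 were lower at 48 h and 1 was higher (all genes 12.5% and 12.8%), and 2 were lower and 6 higher at 144 h (all genes 29.5% and 34.8%). Of the 8 tested death receptor genes 3 were higher and 2 lower at 144 h, near the shares of all genes.

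**Figure D3:**
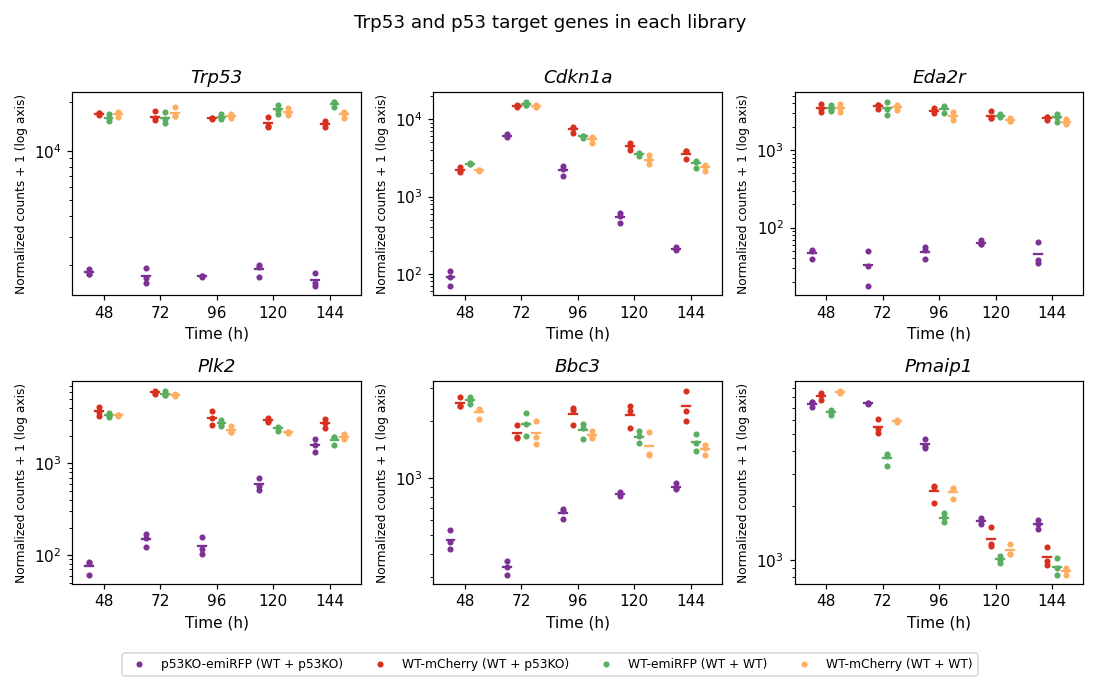
Normalized counts + 1 on a log axis of Trp53 and 5 p53 target genes in every library by time in hours, with points for the 3 replicates and a bar for their mean. The p53KO–emiRFP libraries lie below the 3 wild-type populations for Trp53, Eda2r, Cdkn1a and Bbc3 at every time, lie nearest to them at 144 h for Plk2, and lie above their partners for Pmaip1 from 72 h on.

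Trp73, which encodes the p53 relative p73, was also lower throughout, at 49.1, 42.1 and 51.4 against 487, 497 and 473 at 144 h. Its gap was -1.87 ± 0.05 at 48 h (edgeR adjusted p = 3.3e-13) and -3.35 ± 0.11 at 144 h (edgeR adjusted p = 1.7e-10). Trim24, a ubiquitin ligase for p53, did not pass at any time (gap 0.08 ± 0.06 at 144 h, edgeR adjusted p = 0.28). Of the p53 family and its regulators 6 of 10 were lower and 1 higher at 48 h, and 5 of 11 lower and 1 higher at 144 h, beside 12.5% and 29.5% of all genes called lower. Cdkn2a, which codes for the Mdm2 antagonist ARF and for p16, was higher in p53KO–emiRFP at 48 h (0.97 ± 0.12, edgeR adjusted p = 2.3e-05) by as much as in the clone gap (0.98 ± 0.12, edgeR adjusted p = 0.0001).

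Across all 5 times 330 of 16598 genes (1.99%) differed beyond the clone gap in one direction, 318 lower (1.92%) and 12 higher (0.0723%) in p53KO–emiRFP. Of the 50 listed p53 targets 34 were among the 318. Without replicate 1 there were 178 genes, all lower. Without replicate 2 there were 205, with the replicate block 658 (155 higher), and after subtraction of the emiRFP share 335. Of the 241 lower genes with a RefSeq promoter window 32 held a p53 decamer (13.3%), and of 10 higher genes 0 did.

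Among the lower genes whose average log2 CPM reached 1 at every time, those with the widest median gaps that are not on the target list were Gm37795, Zfp750, Inka2, Alox5, Inpp5d, Ptprv and Dscaml1. Some genes below that level had wider ones, such as Anxa8 (median gap -8.96). Inka2, an inhibitor of the kinase Pak4, was at 14.3, 17.8 and 16.8 against 1236, 1254 and 1298 at 72 h, a gap of -6.25 ± 0.10 (edgeR adjusted p = 1.2e-14). It then narrowed to -2.98 ± 0.18 at 144 h (edgeR adjusted p = 1.5e-08). Inpp5d, the inositol phosphatase SHIP1, was at 394, 382 and 555 against 10266, 10488 and 10448 at 144 h, a gap of -4.55 ± 0.11 (edgeR adjusted p = 1.1e-11). Alox5 (5-lipoxygenase) had a gap of -4.91 ± 0.19 at 96 h (edgeR adjusted p = 1.5e-10). The receptor phosphatase Ptprv had one of -4.80 ± 0.26 (edgeR adjusted p = 8.6e-09), and the transcription factor Zfp750 one of -6.09 ± 0.21 (edgeR adjusted p = 4.8e-11). Mean levels in the mutant libraries were under 40 normalized counts for these genes other than Inpp5d, so their gaps rest on low counts.

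The 12 higher genes included Gprc5c, Dusp5, Phgdh, Psat1, Zfp869, Slc35g1, Mtap, Sdhaf2, Cdca7, Szrd1 and Asf1b, and their median gaps were small (0.2 to 0.65). Phgdh and Psat1 encode consecutive enzymes of serine synthesis. Phgdh was at 23639.6, 24867 and 22245 in p53KO–emiRFP and 14789, 16517 and 14644 in WT–mCherry at 72 h, a gap of 0.62 ± 0.07 (edgeR adjusted p = 1.5e-05). Psat1 was at 47671, 48008 and 46799.8 against 28052, 28394 and 28674, a gap of 0.74 ± 0.05 (edgeR adjusted p = 5.7e-08). The groups did not overlap for either. Mtap, of methionine salvage, had one of 0.45 ± 0.06 at 72 h (edgeR adjusted p = 2.2e-05). Cdca7 and the histone chaperone Asf1b, both of proliferating cells, had gaps of 0.58 ± 0.07 (edgeR adjusted p = 4.2e-06) and 0.27 ± 0.07 (edgeR adjusted p = 0.0026) at 144 h, the latter lost without 1 replicate number (highest edgeR adjusted p = 0.066).

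Around the Wnt pulse the mutant cells held more message for amino acid and stress-response genes. At 72 h, 16 of the 20 listed genes of the integrated stress response, the programme driven by Atf4, were higher and 2 lower, with a median gap of 0.58, where 15% of all genes were called higher. Beyond the clone gap 13 of the list were higher and 1 lower. Chac1, which degrades glutathione, was at 2210.2, 2311 and 1984 against 1146, 1192 and 1078, a gap of 0.93 ± 0.10 (edgeR adjusted p = 3.6e-06). Mthfd2, of mitochondrial folate metabolism, was at 8685, 8916 and 8309 against 5116, 5492 and 5328 (0.70 ± 0.06, edgeR adjusted p = 6.3e-07), and Asns, which makes asparagine, had a gap of 0.50 ± 0.05 (edgeR adjusted p = 3.4e-06). Atf4 itself had a gap of 0.52 ± 0.07 (edgeR adjusted p = 5.1e-05), beside a clone gap of 0.39 ± 0.07 (edgeR adjusted p = 0.0038, and 0.18 at its highest without 1 replicate number). The lower members were Sesn2 (-1.10 ± 0.06, edgeR adjusted p = 5.3e-09), which is also a p53 target, and Ddit3 (-0.42 ± 0.12, edgeR adjusted p = 0.014), whose call was lost without 1 replicate number (highest edgeR adjusted p = 0.16). The other times had 10, 9, 6 and 9 higher and 2, 1, 2 and 6 lower, with 19 tested at 96 h. Of all genes 12.8%, 9.02%, 20.1% and 34.8% were called higher at those times, and 12.5%, 14.6%, 19.3% and 29.5% lower. Beyond the clone gap 5, 4, 6 and 5 of the list were higher and 2, 1, 2 and 6 lower. At 144 h the clone gap was called higher for 12 of the 20. Of the other genes the study profiled, Dnm1l, of mitochondrial fission, and Cdh1 did not pass at 72 h (0.05 ± 0.08, edgeR adjusted p = 0.67, and -0.01 ± 0.05, edgeR adjusted p = 0.86).

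Genes of ribosome production were also higher at 72 h. At 72 h, 22 of 35 ribosome biogenesis genes were higher and 1 lower, beside 15% and 16.3% of all genes (median 0.20), 20 of the higher ones beyond the clone gap. Ddx21, an RNA helicase of the nucleolus, was at 46128, 44411 and 46361 against 37104, 35775 and 38076, a gap of 0.30 ± 0.05 (edgeR adjusted p = 0.00015). At 48 h 8 were called, all higher (20 higher and 1 lower with the block). The later counts were 5 higher and 3 lower (9 and 4 with the block), then 2 and 3 (8 and 9), and then 6 and 11. Of all genes 12.8% were called higher at 48 h, and 9.02% higher and 14.6% lower at 96 h. At 120 h both counts of the list lay below the shares of all genes called (20.1% higher and 19.3% lower), and so did the higher count at 144 h (34.8%). The lower count at 144 h was near the share of all genes (29.5%). Myc stood at 3152, 3368 and 3092 against 1873, 2176 and 1961 at 72 h, a gap of 0.68 ± 0.09 (edgeR adjusted p = 4e-05). Its gap at 120 h did not pass (0.01 ± 0.09, edgeR adjusted p = 0.92) and took the other sign with TMM or DESeq2 scaling. It was higher again at 144 h (0.92 ± 0.11, edgeR adjusted p = 8e-06), where its clone gap was -0.70 ± 0.11 (edgeR adjusted p = 0.00071). The 12 listed genes of the Myc network as a whole were 3 higher and 2 lower at 72 h and 6 and 3 at 144 h, beside 15% and 34.8% of all genes called higher.

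More G1/S and replication genes were called higher than lower in the mutant cells at each time. Of 28 listed, 8, 17, 12, 7 and 22 were higher in the order of time and 1, 2, 1, 0 and 2 lower, with a median gap of 0.20 at 72 h and 0.26 at 144 h. Of all tested genes 12.8%, 15%, 9.02%, 20.1% and 34.8% were called higher, so the 7 of 28 at 120 h (median 0.09, all genes 0.05) were near the share of all genes. Under the block 16 were higher at 48 h and 12 at 120 h. At 144 h Ccnd2 (cyclin D2) was at 26070.5, 25981 and 20746 against 10953, 6861 and 8119.5, a gap of 1.49 ± 0.16 (edgeR adjusted p = 2.4e-06) beside a clone gap of -1.31 ± 0.16 (edgeR adjusted p = 0.00013). E2f2 had a gap of 0.99 ± 0.09 (edgeR adjusted p = 6e-07). Of 22 mitotic genes edgeR called 0 at 48 h (0 at an unadjusted p below 0.05, 0 with DESeq2, 5 with the block), 4 at 72 h, all higher, 2 at 96 h and 5 at 120 h, all lower (9 with the block at 120 h), and 4 higher and 6 lower at 144 h. Of the lower ones 0 at 96 h and 1 at 120 h went beyond the clone gap. At 96 h the clone gap was called lower for 4 members, and the difference from it was called higher for 4. The shares of all genes called lower were 14.6%, 19.3% and 29.5% at the last 3 times, so the lower counts were near or below them. Among the 7 CDK inhibitors Cdkn1c (p57) ran against Cdkn1a, at 4375, 4133 and 3973 against 2184, 1342 and 1412 at 144 h, a gap of 1.34 ± 0.15 (edgeR adjusted p = 4e-06).

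At 48 h, before the pulse, the mitochondrially encoded messages were lower in the mutant cells. Of 12 tested, 9 were called, all lower, with a median gap of -0.46, and 6 of these differed beyond the clone gap (10 with the block). Of all genes 12.5% were called lower at 48 h, and 5.23% were lower beyond the clone gap. mt-Nd2, a subunit of complex I, was at 56379, 46122 and 54674 against 74788, 73508 and 73349.9, a gap of -0.50 ± 0.06 (edgeR adjusted p = 3.1e-05). mt-Cytb, of complex III, had a gap of -0.45 ± 0.08 (edgeR adjusted p = 0.001). At the 4 later times edgeR called 0 of the 11 or 12 tested members (0 at an unadjusted p below 0.05, 0 with DESeq2), and the block called 2 higher at 96 h. Poly-A selection reaches these messages only in part, and its part in this difference was not tested.

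Naive pluripotency factors had no common direction in the gap at 48 h and were lower in the mutant cells later. Of 14, in the order of time, 3, 8, 11, 13 and 14 were lower in p53KO–emiRFP and 4, 1, 1, 0 and 0 higher. Of all genes 12.5%, 16.3%, 14.6%, 19.3% and 29.5% were called lower. The median gap ran 0.13, -0.42, -0.998, -1.87 and -2.05. Before 96 h the clone gap was called lower for 9 members at each time, and of the lower members 0 and then 1 differed beyond it. At 48 h the clone gap lay below the gap, so that the difference of the gap from it was called higher for 8 of 14 members and lower for 0 (median 0.56), and 3 were higher in the gap and beyond the clone gap (6 with the block). From 96 h on all the lower ones differed beyond the clone gap. At 144 h the clone gap itself was the other way, with 13 of 14 higher in WT–emiRFP (median 0.52).

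Nanog, a core factor of the naive network, shows the course. It stood at 10619.8, 11225 and 9838 against 11525, 12101 and 11570.2 at 72 h, 3245, 3313 and 2863 against 6123, 6927 and 6666 at 96 h and 3179.9, 3774 and 4819 against 16016, 17399 and 18601 at 144 h. From 96 h the mutant libraries lay below all the wild-type ones of both kinds of gastruloid. The gap was -0.15 ± 0.06 at 72 h (edgeR adjusted p = 0.079, and 0.011 with the block), -1.07 ± 0.09 at 96 h (edgeR adjusted p = 1.3e-06) and -2.11 ± 0.07 at 120 h (edgeR adjusted p = 1.5e-10). It changed by -0.91 ± 0.13 from 72 to 96 h (edgeR adjusted p = 3.4e-06) and by -1.04 ± 0.13 from 96 to 120 h (edgeR adjusted p = 7.6e-08). Esrrb and Zfp42 (Rex1) had gaps of -2.08 ± 0.12 (edgeR adjusted p = 7.2e-09) and -2.03 ± 0.13 (edgeR adjusted p = 1.5e-08) at 144 h, and Sox2, shared with neural progenitors, one of -0.71 ± 0.09 (edgeR adjusted p = 1.2e-05).

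Dppa3 (Stella), a factor of naive cells and germ cells, crossed over. It was at 1061, 839.8 and 978 against 328, 261 and 428 at 48 h and at 731, 791 and 966 against 2299, 1767 and 1988 at 144 h. Its gap was 1.51 ± 0.14 (edgeR adjusted p = 9.3e-07) and later -1.28 ± 0.11 (edgeR adjusted p = 3.5e-07). The primordial germ cell list, which shares Prdm14 and Dppa3 with the naive list, had all 11 members lower at 120 h and again at 144 h, with medians -1.02 and -1.78. Earlier it had 2, 2 and 1 higher and 3, 5 and 6 lower. The shares of all genes called lower were 12.5%, 16.3% and 14.6% up to 96 h, then 19.3% and 29.5%. Dazl, an RNA-binding protein of germ cells, was at 96.1, 89.7 and 107 against 546, 464 and 573 at 120 h, a gap of -2.43 ± 0.11 (edgeR adjusted p = 2.3e-09). Nanos3 was at 45, 32.6 and 34.1 against 218, 225 and 210.1 (-2.55 ± 0.21, edgeR adjusted p = 5.2e-07). In bulk samples fewer cells of a type and less RNA per cell cannot be told apart, and this holds for each lineage below.

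**Figure D4:**
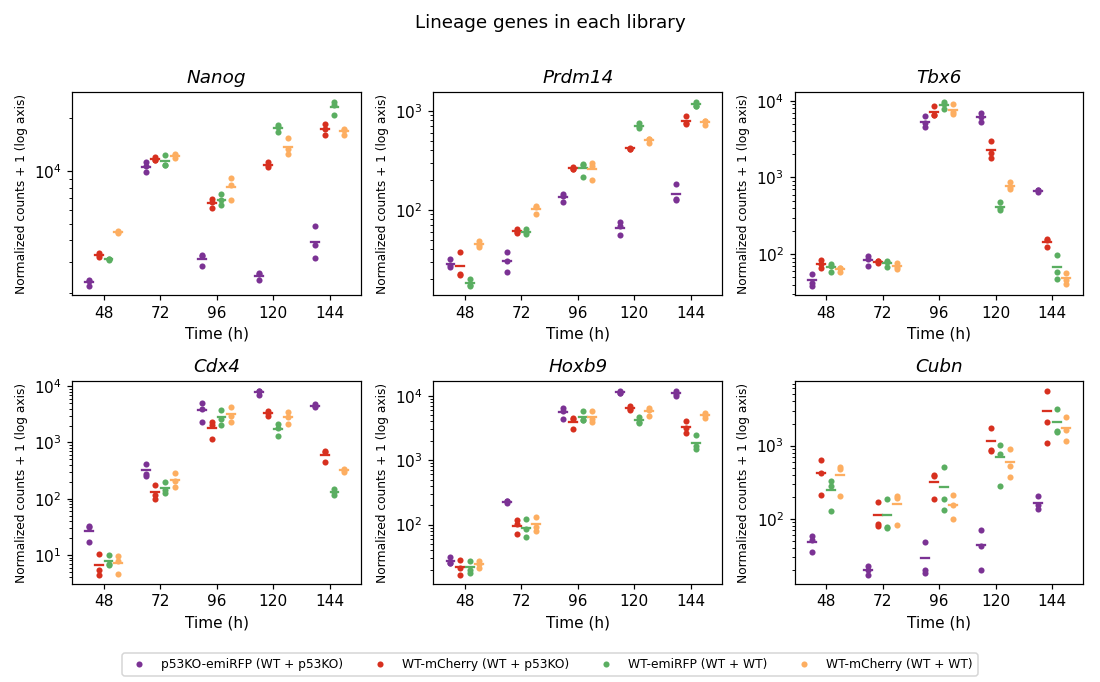
Normalized counts + 1 on a log axis of 6 lineage genes in every library by time in hours, with points for the 3 replicates and a bar for their mean. Nanog and Prdm14 are lower in p53KO–emiRFP than in WT–mCherry in all libraries from 72 h on, Tbx6, Cdx4 and Hoxb9 are higher at 120 and 144 h, and Cubn is lower in p53KO–emiRFP at every time.

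Presomitic mesoderm genes reversed between 96 and 120 h. At 96 h 4 of 9 were called, all lower in the mutant cells (8 with the block). At 120 h 8 of 10 were called, all higher, and at 144 h 10 of 10 were higher, with medians of -0.29, 0.97 and 2.38. Of all genes 14.6% were called lower at 96 h, and 20.1% and 34.8% higher at the later times. All of these called members differed beyond the clone gap. Msgn1, a master factor of this tissue, was at 4004, 5080.0 and 5536 against 6454, 6883 and 7862 at 96 h and 1623, 1669.7 and 1794 against 437, 594 and 479.7 at 120 h. Its gap was -0.54 ± 0.11 (edgeR adjusted p = 0.0023) and then 1.75 ± 0.20 (edgeR adjusted p = 1.3e-05), a change of 2.29 ± 0.24 (edgeR adjusted p = 2.3e-09). Tbx6, a factor that commits cells to it, was at 4518, 5121 and 6313 against 6436, 6466 and 8644 at 96 h. By 120 h it was at 5277, 6914 and 6185 against 1810.1, 2986 and 2085, and its gap changed by 1.85 ± 0.19 (edgeR adjusted p = 1.1e-09). Hes7, of the segmentation clock, had a gap of 3.20 ± 0.24 at 144 h (edgeR adjusted p = 8.8e-08), and Rspo3, a Wnt potentiator, one of 2.89 ± 0.16 (edgeR adjusted p = 4.5e-09). At 96 h the calls for Tbx6 and Rspo3 were lost without 1 replicate number (highest edgeR adjusted p = 0.17 and 0.14).

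Between 96 and 120 h changes of the gap were called for 2678 genes (13%), 1564 towards the mutant cells (7.58%) and 1114 away (5.4%). Between 120 and 144 h the count was 4671 (22.6%), 3126 towards the mutant cells (15.1%) and 1545 away (7.49%). Without replicate 1 these counts were 731 (353 towards the mutant cells and 378 away) and 2169, and without replicate 2 the latter was 2604. With the block the former was 4231. Its split also turned with an absolute log2 fold change of at least 1 (279 towards the mutant cells and 346 away). In 104 genes the gap was called lower at 96 h, higher at 120 h and different between them, and in 29 the reverse held. From 72 to 96 h the count was 730 (3.54%), 352 towards the mutant cells (1.71%) and 378 away (1.83%). With TMM scaling the split was 446 and 278, and without replicates 1, 2 and 3 the total was 245, 227 and 355 (1530 with the block).

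Caudal progenitor genes, of the tail bud that feeds both spinal cord and somites, were also higher. Of 14, the called members were all higher at the last 3 times, 7 at 96 h (11 with the block), then 12 and 11, with medians of 0.25, 0.87 and 2.19. At 48 h 6 of 12 were called, all higher, and at 72 h 7 were higher and 1 lower. The shares of all genes called higher were 12.8%, 15%, 9.02%, 20.1% and 34.8% in the order of time. Of the higher ones 2 at 48 h, 3 at 72 h and 4 at 96 h differed beyond the clone gap, and all of them did at 120 and 144 h. Cdx2 stood at 21957, 20679.7 and 22588 against 16797, 14946 and 15626 at 96 h and 5487, 5912 and 5934 against 1344, 1049.5 and 1121 at 144 h. Its gap was 0.46 ± 0.07 (edgeR adjusted p = 0.00018) and 2.30 ± 0.10 (edgeR adjusted p = 1.1e-09). Cdx4 was at 4376, 4251 and 4913 against 687, 442 and 697 at 144 h, 2.89 ± 0.14 (edgeR adjusted p = 2e-09). Wnt3a was at 3347, 4087 and 3458 against 1012, 1510.2 and 994 at 120 h, 1.63 ± 0.15 (edgeR adjusted p = 1.5e-06). At 144 h the WT–emiRFP libraries had less Cdx4 than their WT–mCherry partners (-1.27 ± 0.16, edgeR adjusted p = 0.00017). This call was lost after the emiRFP share was subtracted from all WT–mCherry libraries of the shared fit. In WT–mCherry of WT + WT gastruloids that share was 0.19 to 2.12% at 144 h, and the cause of the loss was not tested.

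Most tested Hox genes were higher in the mutant cells at 120 and 144 h. At 72 h 4 of 10 of paralogue groups 1 to 4, 6 of 10 of groups 5 to 8 and 5 of 8 of groups 9 to 13 were called higher and 1 of the last lower, and 9 of the higher ones went beyond the clone gap. At 96 h fewer were, with 2 of 12, 3 of 11 and 4 of 10 higher and 1, 0 and 1 lower (4, 7 and 8 higher with the block), and 1 of the higher ones went beyond the clone gap. Of groups 1 to 4, 9 of 12 were higher and 1 lower at 120 h and 11 of 12 higher at 144 h. Of groups 5 to 8, 10 and then 11 of 11 were higher. Of groups 9 to 13, 6 of 12 and then 9 of 13 were higher and 1 was lower. From 72 h on 15%, 9.02%, 20.1% and 34.8% of all genes were called higher. The medians at 144 h were 1.63, 1.81 and 2.05. Hoxb9 was at 11988, 10549 and 10004 against 4018, 2619.6 and 3132, a gap of 1.74 ± 0.17 (edgeR adjusted p = 1.1e-06), and Hoxb1 had 1.67 ± 0.19 (edgeR adjusted p = 4.9e-06). The lower member of groups 9 to 13 was Hoxc13, at 12.9, 23 and 25.2 against 115, 114 and 76.1 at 144 h (-2.32 ± 0.24, edgeR adjusted p = 1.7e-06). The clone gap at 144 h ran the other way, with 10 of 12, 11 of 11 and 6 of 13 lower in WT–emiRFP and no other member called (medians -1.08, -1.26 and -0.98). For Hoxb9 it was -1.42 ± 0.17 (edgeR adjusted p = 0.00013).

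Somite genes were higher at 144 h. At 144 h 11 of 12 were called, all higher (median 1.61), 10 of them beyond the clone gap. The calls of 120 h were 1 higher and 2 lower. Of 11 somite genes tested at 96 h, 3 had a higher call and 3 a lower one (median -0.34). Among these, 0 of the higher and all 3 of the lower ones differed beyond the clone gap. The shares of all genes called at 96 h were 9.02% higher and 14.6% lower. Meox1 did not pass at 120 h, at 8750.2, 9564 and 12103 against 9293, 9790.2 and 12343 (-0.05 ± 0.17, edgeR adjusted p = 0.85). At 144 h it was at 18957, 13212 and 15232 against 5847, 2571 and 4476 (1.88 ± 0.24, edgeR adjusted p = 1.2e-05), a change of 1.92 ± 0.24 (edgeR adjusted p = 4.1e-08). Spinal cord and neural progenitor genes were called higher for 9 of 15 and lower for 1 at 144 h (12 and 1 with the block). Sox1 was at 1906, 2008 and 1638 against 814, 631 and 610.0 (1.43 ± 0.13, edgeR adjusted p = 3.3e-07). Neural crest genes were 6 higher and 3 lower of 9. Of all genes 34.8% were called higher and 29.5% lower at 144 h, and 20.1% and 19.3% at 120 h, so the somite genes at 120 h and the lower neural crest genes were near or below those shares. In the clone gap 9 somite genes, 11 neural genes and 5 neural crest genes were called at 144 h, all lower in WT–emiRFP, the reverse of the order within WT + p53KO gastruloids.

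Cdh1 (E-cadherin) was at 4937, 7281 and 6859.7 against 13759, 16761 and 15752 at 144 h, a gap of -1.28 ± 0.13 (edgeR adjusted p = 1.2e-06). Cdh2 (N-cadherin) was at 14827, 14012 and 13270.4 against 5061, 3297 and 4526, a gap of 1.71 ± 0.16 (edgeR adjusted p = 5.8e-07). The clone gaps were 0.41 ± 0.13 (edgeR adjusted p = 0.032) and -1.36 ± 0.16 (edgeR adjusted p = 0.0001), each opposite in sign, and that of Cdh1 was lost without 1 replicate number (highest edgeR adjusted p = 0.23). Cdh2 was also higher at 48 h (0.60 ± 0.10, edgeR adjusted p = 0.00053), but the difference from its clone gap did not pass there (0.45 ± 0.15, edgeR adjusted p = 0.063, and 0.0018 with the block).

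**Figure D5:**
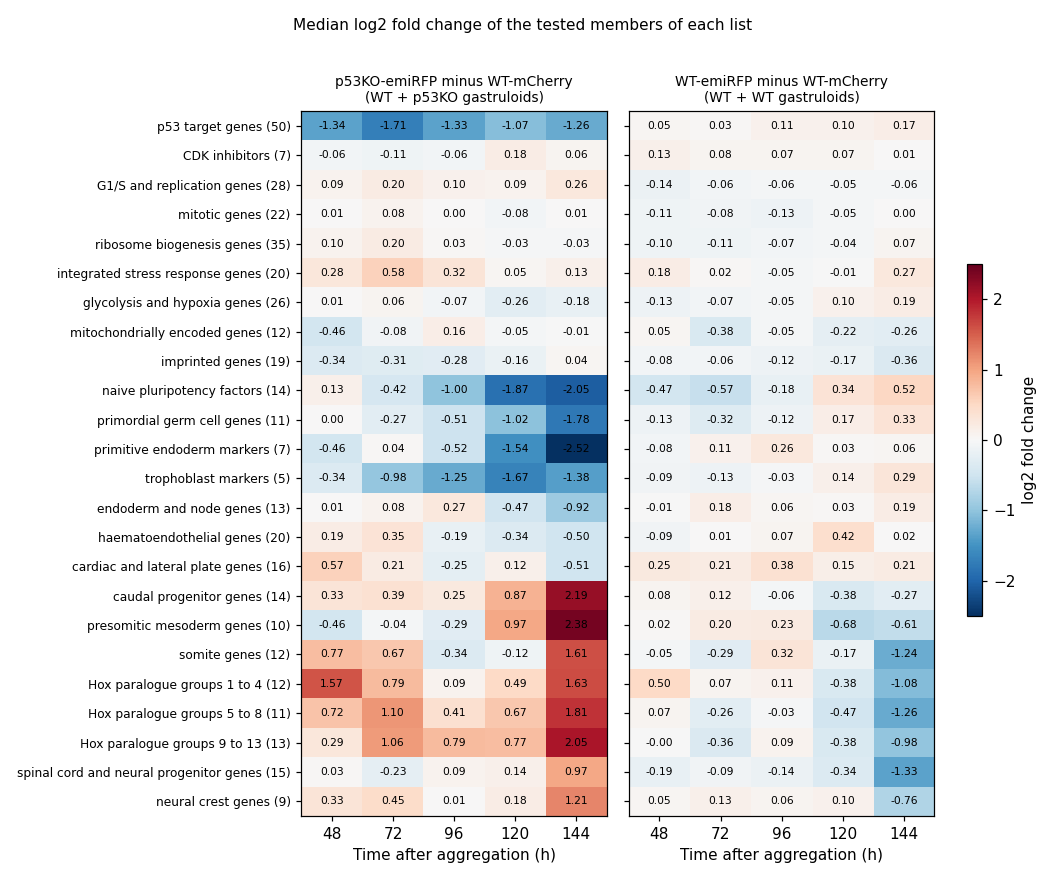
Median log2 fold change of the tested members of 24 gene lists by time in hours, for the gap (left) and the clone gap (right), with red for higher and blue for lower in emiRFP cells and the number of members tested at 144 h in parentheses. p53 target genes are lower at each time in the gap only, naive pluripotency factors reach -2.05 and presomitic mesoderm genes reach 2.38 at 144 h.

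Endoderm and extraembryonic markers were lower in the late mutant cells. Of 13 endoderm and node genes 5 were lower and 2 higher at 120 h, and 8 and 2 at 144 h, beside 19.3% and 29.5% of all genes called lower. Sox17, of definitive and primitive endoderm, was at 56.2, 84.3 and 44.2 against 268, 378 and 192 at 120 h (-2.17 ± 0.39, edgeR adjusted p = 0.00052) and 93.9, 143 and 101 against 648, 693 and 251 at 144 h (-2.24 ± 0.41, edgeR adjusted p = 0.00028). Spink1 was at 8.61, 12 and 4.85 against 289, 488 and 116 (-5.11 ± 0.73, edgeR adjusted p = 3.1e-05). Cer1, a secreted Nodal and BMP antagonist also made in anterior presomitic cells, went the other way, at 449.6, 357 and 368 against 50.6, 30.6 and 57 (3.07 ± 0.25, edgeR adjusted p = 1.6e-07).

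The list of primitive endoderm markers, kept as a check for another cell type, moved with these genes, with 5 of 7 called, all lower, at 120 h and again at 144 h. Of all genes 19.3% were called lower at 120 h and 29.5% at 144 h. The summed level of the list at 144 h was 18368 to 19312 normalized counts in p53KO–emiRFP and 17855 to 40749 in WT–mCherry, so the sums overlapped. Cubn, a receptor of visceral endoderm, was at 57.3, 51.4 and 34.2 against 429, 638 and 215 already at 48 h (-3.19 ± 0.47, edgeR adjusted p = 0.00012) and at 134, 202 and 154 against 2087, 5631 and 1078 at 144 h (-4.17 ± 0.57, edgeR adjusted p = 2e-05). Afp stayed at or near 0 in both populations at 144 h. Trophoblast markers were lower for 4 of the 5 tested at 144 h, with sums of 395 to 557 against 1211 to 1463, while Prl3d1 and Tpbpa, which define mature trophoblast, were at or near 0. The part of such cells in the endoderm result was not tested.

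Other mesoderm lists gave mixed directions at 144 h. Of 20 haematoendothelial genes 5 were higher and 9 lower at 144 h, where 34.8% of all genes were called higher and 29.5% lower. Pecam1, which marks endothelium and also naive mES cells, was at 828, 1051 and 1217 against 4769.7, 5043 and 4948 (-2.26 ± 0.10, edgeR adjusted p = 1.1e-09), but Cdh5, the defining endothelial cadherin, did not pass (-0.32 ± 0.29, edgeR adjusted p = 0.36). Kdr was higher (0.64 ± 0.14, edgeR adjusted p = 0.0013). Cardiac and lateral plate genes were 5 higher and 7 lower of 16, and intermediate mesoderm genes 4 and 2 of 6. Of 11 primitive streak factors 7 were higher and 2 lower at 72 h (all genes 15% and 16.3%), of which 1 and 2 went beyond the clone gap. Mixl1, a streak factor, was at 307, 385 and 327 against 56.8, 96.9 and 70.3 at 120 h (2.18 ± 0.19, edgeR adjusted p = 7.5e-07). Nodal and Wnt3, also among the listed streak factors, had gaps of -1.26 and -1.99 at 120 h and were lower at all 5 times. Formative and primed factors were 4 higher and 3 lower of 11 at 144 h, near the shares of all genes.

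Wnt, FGF and BMP genes were more often higher than lower in the mutant cells at 120 and 144 h. At 120 h 13 of 23 Wnt pathway genes were higher and 2 lower, 10 of 18 FGF and ERK genes and 2, and 7 of 16 BMP genes and 4. Of 11 Nodal genes 3 were higher and 4 lower at that time, and of 11 YAP and TEAD genes 3 and 2 (3 and 4 with the block). Among all genes 20.1% were higher and 19.3% lower at 120 h, with the Nodal and YAP counts and that of lower BMP genes not far from these shares. At 144 h these were 12 and 4 of 22, 14 and 2, and 11 and 4. Retinoic acid genes were 7 and 1 of 13, Nodal genes 3 and 6 of 11 (median -0.38), and YAP and TEAD genes 4 and 4 of 11 (median -0.20) at that time. Among all genes 34.8% were higher and 29.5% lower at 144 h, an order that TMM turned.

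Several imprinted genes had a clone gap as wide as the gap. Mest stood at 549, 613 and 464 in p53KO–emiRFP and 9239, 8727 and 9098 in WT–mCherry at 48 h, a gap of -4.06 ± 0.08 (edgeR adjusted p = 8.2e-15), and its clone gap was -3.94 ± 0.08 (edgeR adjusted p = 8e-14). Grb10 ran the other way by as much, 1.92 ± 0.08 (edgeR adjusted p = 4.8e-11) beside 2.01 ± 0.08 (edgeR adjusted p = 3.1e-10). H19 had -4.60 ± 0.30 beside -4.12 ± 0.29 at 72 h (edgeR adjusted p = 2.3e-08 and edgeR adjusted p = 1.3e-06). Of 19 imprinted genes 6 were higher and 9 lower in the gap at 48 h, and 3 and 2 went beyond the clone gap (4 and 5 with the block). Of all genes 12.8% were higher and 12.5% lower in the gap, and 3.43% and 5.23% beyond the clone gap. Peg10 was one of the 3, at 12900.1, 13514 and 13198 against 5423, 6112 and 5451 (1.22 ± 0.05, edgeR adjusted p = 2.9e-11; clone gap -0.21 ± 0.05, lost without 1 replicate number). Igf2, a growth factor, had a gap of 2.19 ± 0.18 at 144 h (edgeR adjusted p = 1.5e-07) beside a clone gap of 0.84 ± 0.17 (edgeR adjusted p = 0.0034). Over all genes the clone gap was called at all 5 times in one direction for 45 (0.271%), 20 higher and 25 lower, among them the H2B genes.

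Glycolysis and hypoxia genes were lower late. Of 26, 14 were lower and 1 higher at 120 h and 14 and 3 at 144 h (medians -0.26 and -0.18), whereas the earlier times had 5, 2 and 4 lower and 5, 4 and 1 higher (8, 4 and 9 lower with the block). Of all genes 19.3% were lower at 120 h and 29.5% at 144 h. Pfkp, a phosphofructokinase, was at 4081, 4068 and 4053 against 7476, 7113 and 8477 at 120 h (-0.92 ± 0.06, edgeR adjusted p = 6.2e-08). The lactate dehydrogenase gene Ldha did not follow (-0.08 ± 0.07, edgeR adjusted p = 0.35). Of the 15 genes that restrain mTOR 3 were higher and 4 lower at 120 h, near the shares of all genes (20.1% and 19.3%).

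Genes proposed in other systems to mediate competition were mixed. At 120 h 5 of 12 were higher and 2 lower, where 20.1% and 19.3% of all genes were, and at 144 h 7 and 4, beside 34.8% and 29.5%. The lower counts were near the shares of all genes. Sparc, a matrix protein described as protecting loser cells, was at 1045, 1202 and 1043 against 3836, 5271 and 3252 at 120 h (-1.91 ± 0.23, edgeR adjusted p = 2.2e-05). Cacfd1, the mouse relative of fly Flower, was at 4578, 4130.3 and 4069 against 1971, 1768 and 1880.0 at 144 h (1.19 ± 0.07, edgeR adjusted p = 7.2e-09). Llgl2, of the Scribble polarity group, had -1.07 ± 0.13 (edgeR adjusted p = 2.6e-05). Before 120 h 1 to 3 members were called in each direction.

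Engulfment genes were mostly lower among those called at 72 h and mixed at 144 h. At 72 h 8 of 25 were lower and 2 higher in the mutant cells, 7 of the lower ones beyond the clone gap, and at 144 h 9 were lower and 12 higher. The list medians were -0.20 and 0.08, and those of all genes 0.02 and 0.05. Of all genes 16.3% were lower and 15% higher at 72 h, and 29.5% and 34.8% at 144 h. Axl, a receptor for dying cells, was at 177, 185 and 170.2 against 451, 411 and 385 at 72 h and 1060.2, 975 and 1065 against 597, 390.3 and 493 at 144 h. Its gap was -1.23 ± 0.09 (edgeR adjusted p = 1.2e-07) and then 1.07 ± 0.19 (edgeR adjusted p = 0.00019). Its ligand Pros1 also changed sign, -1.04 ± 0.12 (edgeR adjusted p = 7.5e-06) and 0.91 ± 0.07 (edgeR adjusted p = 7.9e-08). Of the MHC class I and interferon genes 7 of 19 were higher and 6 lower at 72 h. Beyond the clone gap 2 of the higher and 6 of the lower ones differed. The clone gap itself was called higher for 5 members and lower for 1 (median 0.31), and the median difference of the gap from it was -0.15. H2-K1, a classical class I gene, was at 3703, 3851 and 3709 against 2131, 2329 and 2135 (0.77 ± 0.06, edgeR adjusted p = 1.4e-07), beside a clone gap of 0.25 ± 0.06 (edgeR adjusted p = 0.019, and 0.33 at its highest without 1 replicate number). B2m, the light chain of class I, had a gap of -0.30 ± 0.07 (edgeR adjusted p = 0.0058), lost without 1 replicate number (highest edgeR adjusted p = 0.068).

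Outside these lists, the widest gaps beyond the clone gap among genes whose average log2 CPM reached 1 named further genes at each time. At 48 h Serpinf1 (1.57 ± 0.12, edgeR adjusted p = 6.5e-08) and the deubiquitinase gene Usp26 (1.35 ± 0.21, edgeR adjusted p = 0.00017) were higher in p53KO–emiRFP. At 72 h Svop, a vesicle transporter relative, was at 5.52, 16 and 3.36 against 1085, 995 and 980.1 (-6.83 ± 0.21, edgeR adjusted p = 3.2e-12), and its gap had changed by -3.92 ± 0.52 since 48 h (edgeR adjusted p = 1.7e-06). At 96 h H2-Bl was at 4437, 3999 and 3901 against 2101, 1843 and 1779 (1.11 ± 0.07, edgeR adjusted p = 5.2e-08). At 120 h Tmem114 was at 247, 299 and 301 against 45.8, 53.6 and 40.6 (2.59 ± 0.16, edgeR adjusted p = 3.8e-08). At 144 h Habp2, a plasma serine protease gene, was at 6.89, 7.01 and 1.94 against 353, 583 and 122 (-6.01 ± 0.84, edgeR adjusted p = 2.7e-05).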

How the data were processed

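RNA of sorted populations was sequenced, and the authors trimmed reads with Trim Galore 0.6.7, aligned them to GRCm38.p6 with STAR 2.7.11b and deposited one table of raw read counts per gene for all 69 libraries. Which strand column was taken is not given in the sources used here, so overlapping and antisense genes are uncertain. The table has 55367 gene symbols, and the 30 libraries held 46388381 to 66543495 counts each.

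Libraries were scaled by median-of-ratios size factors from all 69. At each time the 12 libraries of both kinds of mosaic gastruloid were fitted together with edgeR 4.0.16 (quasi-likelihood, 8 residual degrees of freedom), after its filter on low counts, in R 4.3.3. The gap, the clone gap and their difference were contrasts of that fit, and changes of the gap came from 1 fit of 60 libraries. P-values were two-sided and adjusted by Benjamini-Hochberg over all tested genes, with a threshold of 0.05, and fold changes are given with their SE. The fits were tested on simulated data in which 200 of 18901 genes were changed in p53KO–emiRFP. There a larger share of DESeq2's calls than of edgeR's fell on unchanged genes. The simulated spread was edgeR's own estimate and held no pairing, so the simulation cannot rank the tools for the real data. Alternatives were TMM, DESeq2 1.42.0, no filter, the replicate block, each replicate left out, other libraries in the fit and a minimum fold. Subtracting the emiRFP share was added after the data were seen.

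The numbers mark independent experiments. Deviations of same-numbered partners from their group means, over 14106 genes, correlated at 0.0867 to 0.517 in WT + p53KO and 0.0359 to 0.686 in WT + WT gastruloids. All pairs were above 0.1 except 1 of each kind at 72 h, so the numbers were read as pairing at the other times.

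Genes named are Trp53 and the H2B genes, the widest gaps at each time and at all times and the widest changes where the average log2 CPM reached 1, called or defining members of each list, and genes the study profiles. Members, lists and rule were chosen with earlier results of these data known, and some list members were named after their values were seen. Promoters come from the RefSeq table (GRCm38.p6). A few items are not reported here.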

Additional observations from a re-analysis of the deposited data

Results flagged for a closer look

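The gap differed from the clone gap, by edgeR's test of the difference, for 1933 genes at 48 h and 3629 at 72 h. It did so for 2389 genes at 96 h, for 6260 at 120 h and for 12047 by 144 h. The gap changed between consecutive times for 571, 730, 2678 and 4671 genes. At 144 h 3941 genes were called in the gap and in the clone gap with opposite signs.

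H2bc14 lay above the highest value of WT + WT gastruloids (2.12%) in 7 WT–mCherry libraries of WT + p53KO gastruloids. As a percent of the p53KO–emiRFP partner it was 3.57 in replicate 2 at 96 h. At 120 h it was 7.46, 3.01 and 6.66, and at 144 h it was 16.9, 2.39 and 9.23, in replicates 1, 2 and 3.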

How the results depend on the processing

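Of the 151 gene values named above, 149 kept their direction and their side of the threshold with TMM, 148 with DESeq2, 150 with no filter on low counts, 149 with the replicate block and 150 after subtraction of the emiRFP share. Without replicate 1, 2 or 3 it was 144, 141 and 149. The gap of Myc at 120 h, which did not pass, reversed to -0.019 with TMM, -0.017 with DESeq2 and -0.022 without replicate 2, the lowest value without a replicate (the highest was 0.053), and the cause was not tested. The median difference from the clone gap at 144 h was 0.01 over the filtered genes, and over unfiltered genes it was -0.11 with edgeR and -0.15 with DESeq2. TMM turned the split of changes from 72 to 96 h from 48.2% to 61.6% towards the mutant cells.

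In the order of time, a minimum log2 fold change of 1 left 756, 1045, 1009, 2073 and 4669 genes in the gap. It left 212, 128, 54, 38 and 683 in the clone gap, 441, 905, 841, 2428 and 6245 in their difference, 144, 170, 625 and 1035 in the changes, and 129 at all 5 times, by construction. The replicate block gave gaps of 7708 at 48 h and 7245 at 96 h. It gave clone gaps of 5098, 2865, 2927 and 2040 up to 120 h, differences of 5483, 5566 and 5267 up to 96 h, changes of 1117, 1530 and 4231 up to 120 h, and 658 genes at all 5 times. At 72 h the pairing was not shown for every pair. With no filter the clone gap counted 1045 genes at 96 h and 844 at 120 h, and with DESeq2 772 and 626. With other libraries in the fit it counted 553, 164 and 66 from 72 to 120 h. The cause was not tested.

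Leaving out 1 replicate number, which leaves fewer libraries, gave gaps of 2431 to 3379, 2964 to 5000, 1928 to 3577, 3845 to 6544 and 10333 to 11606 genes. Clone gaps were 334 to 980, 167 to 1410, 30 to 312, 18 to 307 and 2178 to 2922. Differences were 675 to 1221, 1359 to 3067, 740 to 1927, 2667 to 5579 and 10072 to 10894. Changes were 84 to 357, 227 to 355, 731 to 1846 and 2169 to 4043, and 178 to 251 genes were called at all 5 times.

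The excess of the pair distance over the WT + WT pairs was 0.156, 0.446 and 0.542 at 48, 120 and 144 h over genes with at least 10 counts. Over genes with at least 500 counts it was 0.15, 0.158, 0.158, 0.266 and 0.356 in the order of time, and at 144 h it was 0.436 to 0.539 without 1 replicate. With 3 pairs of each kind no exact test of it could pass 0.05. Levels of a few counts, as in the mutant cells for Fas and Svop at 72 h, limit the precision of their folds.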
